A study of Mus musculus with 6 samples.

Results

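The genes described here run the folding compartment of the endoplasmic reticulum (ER) and its stress response, and 33 of them were chosen by symbol. They comprise the ER chaperones and their co-factors, disulphide isomerases, the translocon, ER-associated degradation, the 3 stress sensors, and transcription factors and targets of the stress response. Each was a row of the deposited table of 46959 rows whose symbol equalled the gene's name, and all 33 were found. Values are CPM, the reads of a gene scaled to those of its library, and a gene was tested when it reached 1 CPM in 3 or more libraries, which 31 of the 33 and 12955 genes in all did. The other 2, Derl3 and Chac1, were below that level and are given with reads inferred from their CPM, to the nearest whole read.

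RNA was sequenced from haematopoietic stem cells (HSCs) sorted from bone marrow, the rare cells from which all blood lineages arise. The groups were 3 libraries from control mice and 3 from MaeaCsf1r-Cre littermates, all 8 weeks old per the series' design text, with about 2000 cells pooled from a pair of mice in each library. MaeaCsf1r-Cre mice carry a floxed allele of Maea and a Csf1r-driven Cre transgene on a C57BL/6 background. Csf1r is the receptor gene of the macrophage growth factor, so this driver deletes in mononuclear phagocytes, and the study reports that it also recombines in HSCs. The labels name the other group only as control, so whether its mice carried the floxed allele or Cre is not given there. The comparison asks whether HSCs of mice with a deletion in Maea, which encodes a surface protein with a place in an E3 ubiquitin ligase complex, differ in the transcripts of the ER folding and stress system.

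The reads behind the scaling numbered 32967000 to 39613000 in control and 44157000 to 60935000 in MaeaCsf1r-Cre libraries, and 3 reads were worth 0.0492 to 0.0910 CPM. Maea, the targeted gene, was at 108, 116 and 123 CPM across control replicates 1 to 3, and 76.9, 88.6 and 101 CPM across MaeaCsf1r-Cre replicates 1 to 3, lower in all 3 MaeaCsf1r-Cre libraries than in any control library. Its log2 fold change was -0.39 (SE 0.13, adjusted p = 0.967 from limma, and 0.218 once the replicate number was added as a block), and the table counts reads over the whole gene, not over the deleted part. All 6 HSC markers checked were above 1 CPM in every library, and they summed to 763 to 1098 CPM in control and 546 to 895 CPM in MaeaCsf1r-Cre libraries. Of the 6, 4 had a log2 fold change below 0 (Hlf -0.78, Mecom -0.55, Procr -0.55 and Kit -0.38). Before adjustment 5, these 4 and Ly6a at 0.23, had a blocked p from limma under 0.05, against 13.9% of all genes. None did after adjustment. Of the markers of other cells, the 8 macrophage genes summed to 20.7 to 67.8 CPM in control and to 0.566 to 47.5 CPM in MaeaCsf1r-Cre libraries, and the 9 immediate early and handling-stress genes to 344 to 816 and 175 to 556 CPM. The 8 neutrophil genes summed to 76.7 to 293 and 76.0 to 156 CPM, and the 6 erythroid genes to 151 to 421 and 176 to 377 CPM. Such a p was reached by 1 of 3 neutrophil, 0 of 5 erythroid and 0 of 5 megakaryocyte genes tested. It was also reached by 1 of 2 B-cell genes and by the 1 plasma cell gene tested. Of the 6 B-cell genes, Ms4a1 and Pax5 were at 0 in every library, while Ighm, the heavy chain of immunoglobulin M, was at 7.51 to 29.5 CPM in control and 0.279 to 2.26 CPM in MaeaCsf1r-Cre libraries (log2 fold change -3.08, adjusted p = 0.489 from limma, or 0.141 when blocked). In sorted pools, fewer cells of a type and less RNA per cell cannot be told apart.

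Proteins bound for the cell surface or for secretion enter the ER through the translocon, where chaperones and disulphide isomerases fold them, and those that do not fold are sent back to the cytosol for degradation. When unfolded protein builds up, IRE1 (Ern1), PERK (Eif2ak3) and ATF6 (Atf6) sense it. IRE1 splices Xbp1 messenger RNA, PERK phosphorylates the translation factor eIF2 and thereby favours translation of ATF4, and ATF6 is cut in the Golgi to free a transcription factor. In HSCs, which make little protein, this response is known to bear on survival under stress.

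Sequence carries this response at 2 points that can be shown for the members. The first is the ER stress response element (ERSE, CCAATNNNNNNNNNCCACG), read by NF-Y together with ATF6 and XBP1. In the RefSeq promoter table (GRCm38.p6, from 250 bases before to 50 after each start), 28 of the 33 members had at least 1 promoter, 29 promoters in all, and 9 of these held ERSE on either strand against 0.119% of all 32851 promoters. The 9 were those of Hspa5, Calr, Derl3, Hsp90b1, Canx, Pdia6, Dnajc3, Creld2 and Syvn1. None of the promoters of the 5 related lists of genes described further on held it. Manf, Derl1, Atf6, Hyou1 and Sec61a1 had no entry. The ERSE-II element (ATTGGNCCACG) was held by Herpud1 and Dnajb11 (6.90% of member promoters against 0.0365% of all), the core of the composite element read by ATF4 (TGATGCAA) by Herpud1 and Chac1 (6.90% against 0.895%), and TGACGTGG, the core that XBP1 and ATF6 bind, by 0 member promoters against 0.676% of all. Of the promoters of other ATF4 targets, 6 of 30 held that ATF4 core. No motif overlapped another within a stretch printed here. Promoter stretches of 4 members are shown 5′ to 3′ on the gene's strand, with the match in capitals. Those of Hspa5, Dnajc3 and Calr hold ERSE, the element through which the best known ER stress genes are induced. Hspa5 and Dnajc3 carry it in the gene's own direction, Calr in the opposite one, and Herpud1 carries the ATF4 core (first capitals, opposite strand) and ERSE-II.
Hspa5, chr2:34772005-34772063: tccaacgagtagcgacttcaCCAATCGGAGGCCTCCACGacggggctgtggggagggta
Dnajc3, chr14:118937807-118937865: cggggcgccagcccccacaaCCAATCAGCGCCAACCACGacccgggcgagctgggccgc
Calr, chr8:84847055-84847113: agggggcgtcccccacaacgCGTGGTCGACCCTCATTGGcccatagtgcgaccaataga
Herpud1, chr8:94386297-94386407: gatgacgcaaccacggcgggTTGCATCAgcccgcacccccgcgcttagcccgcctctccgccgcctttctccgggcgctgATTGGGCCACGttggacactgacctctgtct

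The second point is the stretch of 26 bases that IRE1 removes from Xbp1 messenger RNA, which shifts the reading frame so that the active factor is made. It lies in exon 4 of the gene's first transcript in the GENCODE annotation of GRCm38, on the plus strand, and is printed in capitals with 10 bases on either side. The deposited values are 1 number per gene, so reads with and without this stretch cannot be told apart, and the level of Xbp1 given here says nothing of its splicing.
Xbp1, chr11:5524279-5524304 (capitals): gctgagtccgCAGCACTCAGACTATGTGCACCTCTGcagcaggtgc

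Of the 31 members tested, 0 had an adjusted p under 0.05, against 0.00772% of the genes tested (1 gene), in limma's moderated test, whether or not the replicate number entered as a block. Their log2 fold changes, MaeaCsf1r-Cre minus control on the log2(CPM + 1) scale, ran from -0.73 for Trib3 to 0.45 for Asns, with 16 above 0 and 15 below 0, where 39.1% of all genes were above 0. Their median was 0.00088, and that of all genes tested was -0.058. At an unadjusted p under 0.05 there were 0 members without the block against 3.99% of all genes. With the block there were 4, namely Dnajb9, Ern1, Trib3 and Asns, or 12.9% of the members against 13.9% of all genes, a share near the background. Asns was higher, a direction in which 3.11% of all genes had such a p, and the other 3 were lower, as 10.8% of all genes were. The summed CPM of the 33 members was 4539 ± 401 in control and 4532 ± 420 in MaeaCsf1r-Cre HSCs (mean ± SD, n = 3 per group). Direction counts turned with the scaling. Rescaling by median ratios, which moved the median of all genes to 0.00025, gave 21 members above 0 and 6481 of all 12955 genes. Quantile normalization gave 14 members above 0 and 6883 of all genes. The correction for transcript length gave 22 members, where 56.2% of all genes were above 0.

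**Figure D1:**
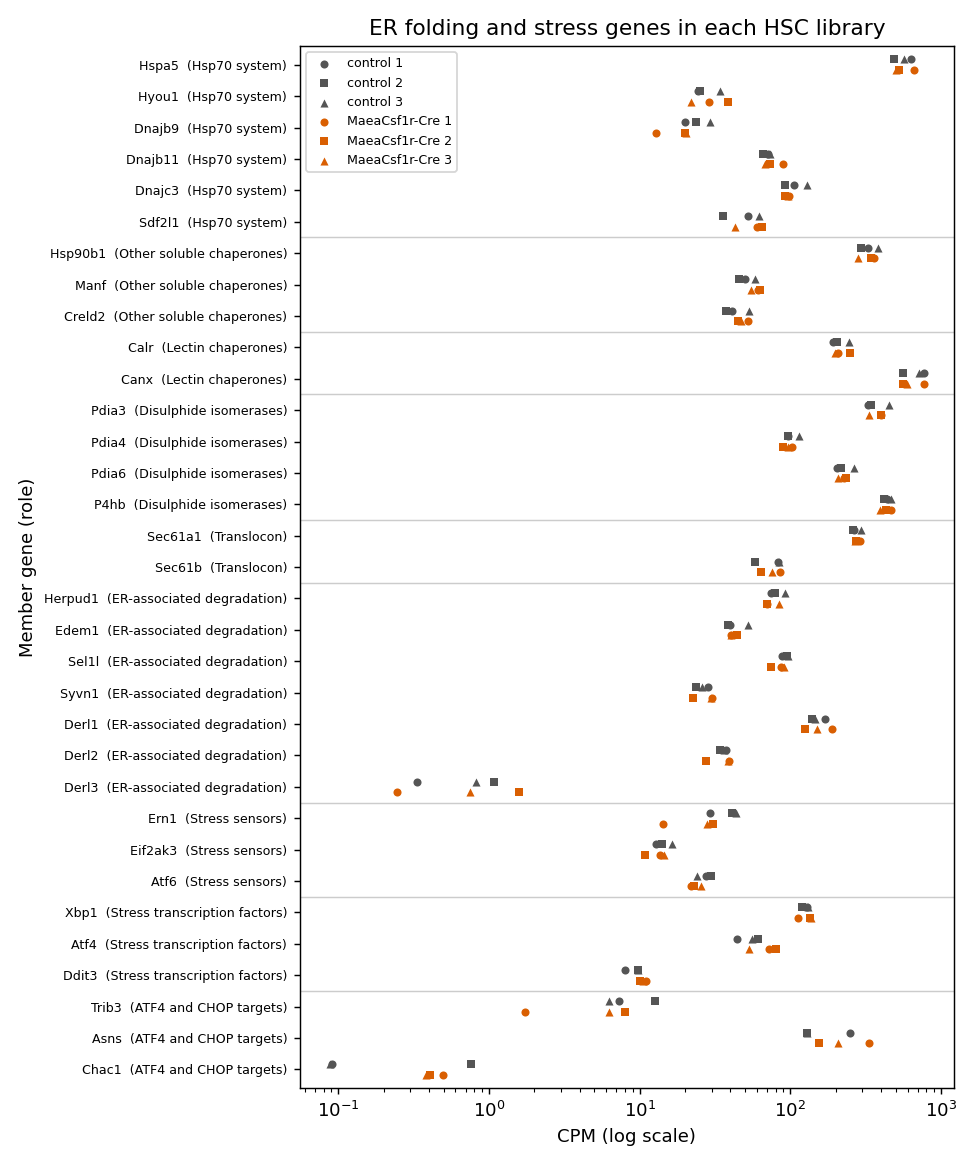
CPM of the 33 members (vertical axis, grouped by role) in each library on a log axis; grey is control, orange is MaeaCsf1r-Cre, and circles, squares and triangles are replicates 1, 2 and 3. The points of the chaperones and isomerases lie on top of each other in both groups, those of Chac1, Trib3, Derl3, Ern1 and Asns spread most on this axis, and Derl3 and Chac1 lie near or under 1 CPM.

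Of the 6 genes of the ER Hsp70 system, 0 passed the threshold, with log2 fold changes from -0.45 for Dnajb9 to 0.17 for Sdf2l1 and a median of 0.037. Hspa5 (ENSMUSG00000026864.13, GRCm38 chr2:34771970-34777547), the ER Hsp70 known as BiP that also holds the sensors inactive, was at 629, 486 and 565 CPM across control replicates 1 to 3, and 665, 526 and 500.4 CPM across MaeaCsf1r-Cre replicates 1 to 3. Both groups had replicate 1 as their highest library, and the groups overlapped. Its log2 fold change was 0.0064 (95% confidence interval -0.36 to 0.37, or -0.22 to 0.24 with the block).

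Dnajb9, a J-protein co-chaperone of BiP also called ERdj4 (ENSMUSG00000014905.4, chr12:44205559-44210326), was at 20.1, 23.5 and 29.5 CPM across control replicates 1 to 3, and 12.9, 20.04 and 20.2 CPM across MaeaCsf1r-Cre replicates 1 to 3. It was lowest in MaeaCsf1r-Cre replicate 1 and highest in control replicate 3, and control replicate 1 lay below MaeaCsf1r-Cre replicate 3, so the groups overlapped. The mean was 24.4 ± 4.77 CPM in control and 17.7 ± 4.15 CPM in MaeaCsf1r-Cre HSCs (mean ± SD, n = 3 per group). Its log2 fold change was -0.45 (SE 0.23, adjusted p = 0.967 from limma), lower in 3 of 3 same-numbered pairs, and with the block the unadjusted p was 0.0136 and the adjusted p 0.266. Without MaeaCsf1r-Cre replicate 1 the log2 fold change was -0.25.

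None of the other members of the system went the same way in all 3 pairs. Hyou1, the large nucleotide exchange factor of BiP, was at 24.4, 25.2 and 34.00 CPM in control and 28.8, 38.3 and 21.9 CPM in MaeaCsf1r-Cre libraries, and MaeaCsf1r-Cre libraries held both its highest and its lowest value. Sdf2l1, a partner of the co-chaperones, was at 52.5, 35.6 and 62.04 CPM in control and 60.2, 64.7 and 43.2 CPM in MaeaCsf1r-Cre libraries, a log2 fold change of 0.17 (interval -0.37 to 0.72). Dnajb11 and Dnajc3 (p58IPK), both J-proteins, had log2 fold changes of 0.12 and -0.17. In Dnajc3 the difference rested on control replicate 3 at 128 CPM, while the other 5 libraries lay between 91.7 and 105 CPM.

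Of the other soluble chaperones, Hsp90b1 (GRP94), the ER Hsp90 that folds integrins and Toll-like receptors, was at 325, 296 and 383 CPM across control replicates 1 to 3, and 357, 343 and 279 CPM across MaeaCsf1r-Cre replicates 1 to 3. The groups overlapped and the log2 fold change was -0.036 (interval -0.38 to 0.31). Manf, a secreted ER stress protein, had means of 51.5 ± 6.48 CPM in control and 59.5 ± 4.16 CPM in MaeaCsf1r-Cre HSCs (mean ± SD, n = 3 per group), a log2 fold change of 0.21 (SE 0.14, adjusted p = 0.967 from limma), and Creld2, another secreted ER stress protein, had one of 0.14. Both were higher in pairs 1 and 2 and lower in pair 3.

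The lectin chaperones bind glycoproteins with a single glucose left on the sugar chain. Calr, the soluble one, was at 192, 204 and 246 CPM in control and 208, 248 and 197 CPM in MaeaCsf1r-Cre libraries, and its highest control and highest MaeaCsf1r-Cre values were 246 and 248 CPM. Canx, the membrane-bound one, was at 769, 561 and 715 CPM in control and 771, 556 and 595 CPM in MaeaCsf1r-Cre libraries, with replicate 1 highest in both groups. Their log2 fold changes were 0.027 (interval -0.30 to 0.36) and -0.092 (interval -0.50 to 0.31).

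All 4 disulphide isomerases had log2 fold changes within 0.1 of 0. They form and reshuffle the disulphide bonds of folding proteins. Pdia3, which works with the lectin chaperones, was at 328, 345 and 448 CPM in control and 401, 397 and 332 CPM in MaeaCsf1r-Cre libraries. P4hb, the founding isomerase, was at 437, 419 and 464 CPM in control and 466, 433 and 396 CPM in MaeaCsf1r-Cre libraries, one of the narrowest spreads among the members, and its interval was -0.30 to 0.24. Pdia4 and Pdia6 had log2 fold changes of -0.089 and -0.029. In control HSCs replicate 3 was the highest library for all 4.

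Both translocon genes had log2 fold changes near 0. Sec61a1, the channel itself, was at 265, 262 and 293 CPM in control and 291, 273 and 267 CPM in MaeaCsf1r-Cre libraries, a log2 fold change of 0.021 (interval -0.23 to 0.27). Sec61b, a small subunit of the channel, had means of 75.2 ± 14.5 CPM in control and 74.8 ± 10.9 CPM in MaeaCsf1r-Cre HSCs (mean ± SD, n = 3 per group), and its lowest value in either group was in replicate 2.

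**Figure D2:**
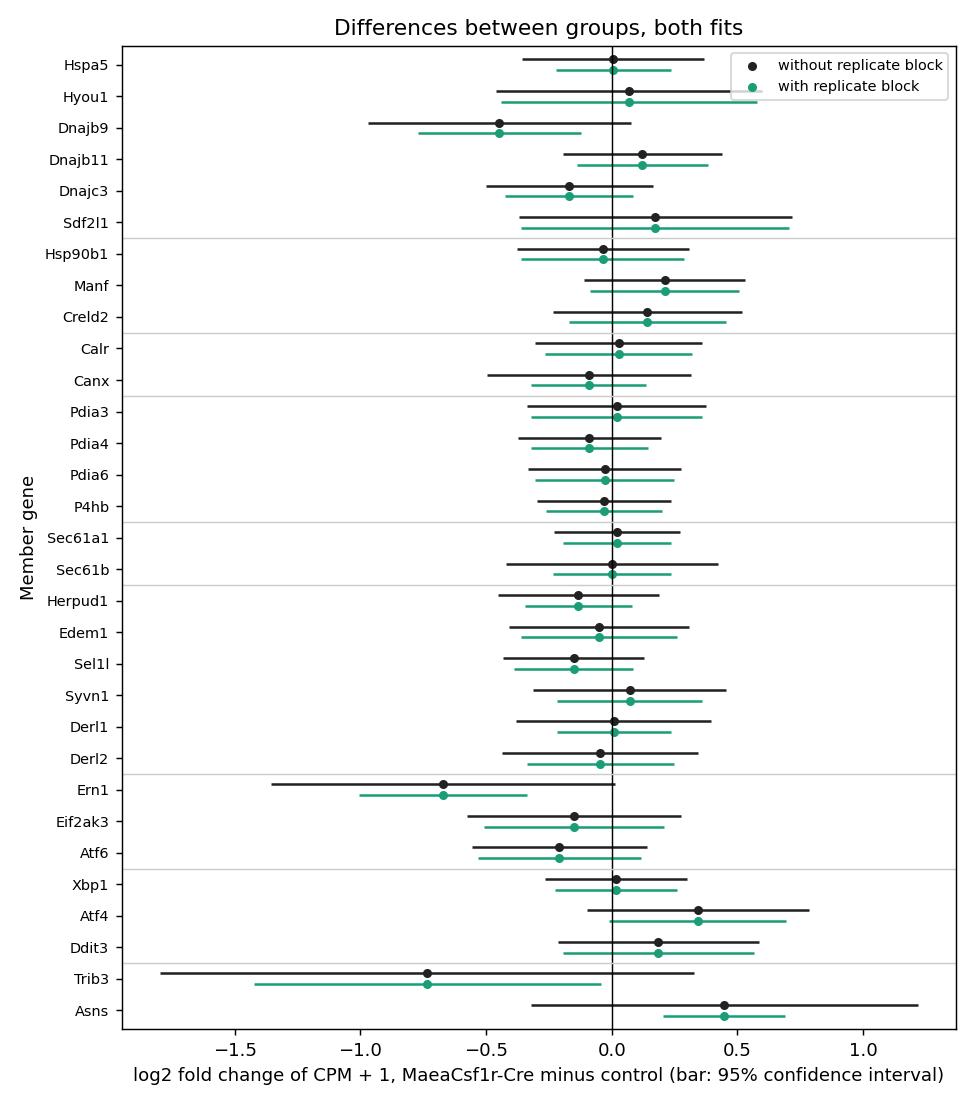
log2 fold change of CPM + 1 for the 31 members tested (horizontal axis, MaeaCsf1r-Cre minus control) with 95% confidence intervals, black without and green with the replicate block, ordered by role. Every black interval spans 0, and the green intervals of Dnajb9, Ern1, Trib3 and Asns do not.

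The chaperones, isomerases and translocon genes, 17 in all, shared much of their order among the libraries. In control HSCs the highest library was replicate 3 for 15 of the 17 and for 22 of the 31 members tested (71.0%), while it was the highest control library for 31.7% of all genes. Within same-numbered pairs, MaeaCsf1r-Cre replicate 3 was lower than control replicate 3 for 17 of 17, against 48.6% of all genes. In pair 1 the MaeaCsf1r-Cre library was higher for 15 of 17 (46.9% of all genes), and in pair 2 for 14 of 17 (31.8%). The median log2 difference over the 17 was 0.14, 0.12 and -0.27 in pairs 1, 2 and 3, so the near-zero averages came from pairs of opposite direction. These 17 values come from the same 2 libraries in each pair and are not independent. Among the marker lists, the 5 megakaryocyte genes and the 5 plasma cell genes in the table also summed highest in control replicate 3. The megakaryocyte genes were at 1282 CPM there against 265 to 677 CPM in the other 5 libraries. The plasma cell genes were at 17.9 CPM there against 2.97 to 11.3 CPM. Of the 17.9 CPM, Sdc1 gave 9.61, Igkc 5.61 and Jchain 2.66 CPM, and Sdc1 itself was highest in control replicate 2. The part of either list in the order of the libraries was not tested. Without control replicate 3, 19 of the 31 members had a log2 fold change above 0, and without control replicate 2, 8 did.

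**Figure D3:**
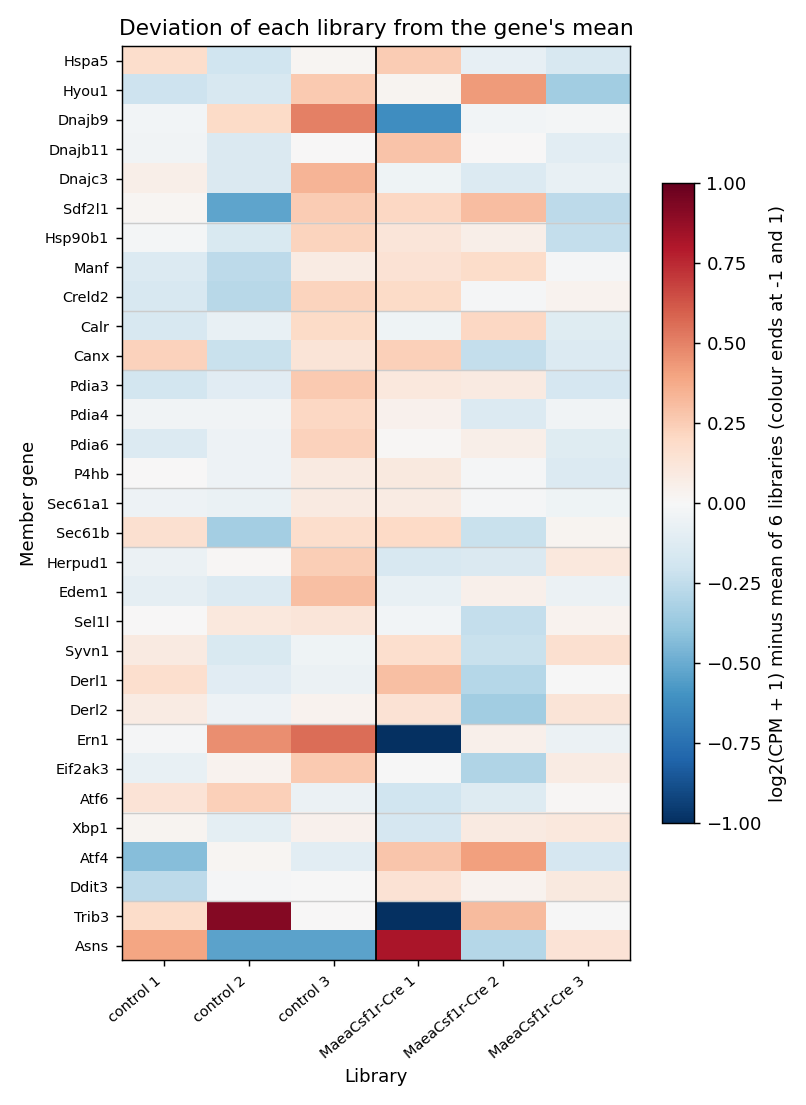
log2(CPM + 1) of each member tested (rows) in each library (columns) minus its mean over the 6 libraries, red above and blue below, with colours ending at -1 and 1. Control 3 is red for most chaperones and isomerases, MaeaCsf1r-Cre 3 is pale blue for most of them, and Ern1, Dnajb9, Trib3 and Asns deviate most in MaeaCsf1r-Cre 1.

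ER-associated degradation was represented by 7 genes, of which 6 were tested and 0 passed the threshold. Their median log2 fold change was -0.048, with 2 above 0 and 4 below, and 0.096 after the correction for length, when 5 were above 0. Herpud1, which gathers the degradation complex and is strongly induced by ER stress, was at 74.4, 78.6 and 92.4 CPM across control replicates 1 to 3, and 69.6, 70.2 and 83.7 CPM across MaeaCsf1r-Cre replicates 1 to 3. It was lower in 3 of 3 pairs, but the groups overlapped and the log2 fold change was -0.13 (SE 0.14, adjusted p = 0.967 from limma). Sel1l, the scaffold of the HRD1 ubiquitin ligase that HSCs need for their maintenance, was at 88.2, 94.8 and 96.1 CPM in control and 86.3, 74.7 and 90.5 CPM in MaeaCsf1r-Cre libraries, also lower in 3 of 3 pairs, and its lowest value was in MaeaCsf1r-Cre replicate 2.

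Syvn1, the ligase HRD1 itself, had means of 26.01 ± 2.27 CPM in control and 27.5 ± 4.25 CPM in MaeaCsf1r-Cre HSCs (mean ± SD, n = 3 per group) and a log2 fold change of 0.071 (interval -0.31 to 0.45). Edem1, which recognises trimmed glycoproteins, had a log2 fold change of -0.050. Derl1 and Derl2, membrane proteins through which substrates leave the ER, had log2 fold changes of 0.0078 and -0.046, and both were highest in replicate 1 of each group. Derl3, the third of the family, stood at an inferred 11, 43 and 28 reads in control replicates 1, 2 and 3 and at 15, 70 and 33 reads in MaeaCsf1r-Cre replicates 1, 2 and 3. These were 0.334 to 1.09 and 0.246 to 1.59 CPM, with replicate 2 the highest and replicate 1 the lowest in both groups.

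The 3 stress sensors each had a log2 fold change below 0, under every rescaling tried as well, and none passed the threshold. Ern1, which encodes IRE1α (ENSMUSG00000020715.9, chr11:106394650-106487852), was at 29.2, 40.8 and 43.7 CPM across control replicates 1 to 3, and 14.2, 30.5 and 28.1 CPM across MaeaCsf1r-Cre replicates 1 to 3. Control replicate 1 lay below MaeaCsf1r-Cre replicate 2, so the groups overlapped, and MaeaCsf1r-Cre replicate 1 was the lowest of all 6. The mean was 37.9 ± 7.69 CPM in control and 24.3 ± 8.81 CPM in MaeaCsf1r-Cre HSCs (mean ± SD, n = 3 per group).

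The log2 fold change of Ern1 was -0.67 (SE 0.30, unadjusted p = 0.0535, adjusted p = 0.967 from limma). It was lower in 3 of 3 pairs, and the pairs differed by -0.99, -0.41 and -0.62 on the log2 scale, so with the block the interval was -1.01 to -0.34 and the unadjusted p was 0.00202, but the adjusted p over all 12955 genes was 0.204. With the correction for transcript length its log2 fold change was -0.49, and without MaeaCsf1r-Cre replicate 1 it was -0.34. MaeaCsf1r-Cre replicate 1, its lowest library, was also the lowest for the summed HSC markers, at 546 CPM against 702 to 1098 CPM in the other 5 libraries, and for the summed handling-stress genes, and the part of either in the value of Ern1 was not tested.

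Eif2ak3, which encodes PERK, was at 12.9, 14.01 and 16.5 CPM in control and 13.6, 10.9 and 14.5 CPM in MaeaCsf1r-Cre libraries, higher in pair 1 and lower in the other pairs. Atf6 was at 27.7, 29.9 and 24.1 CPM in control and 21.9, 22.9 and 25.4 CPM in MaeaCsf1r-Cre libraries, and its log2 fold change was -0.21 (SE 0.15, adjusted p = 0.967 from limma). The median of the sensors was -0.21 and, with the correction for length, -0.025. Longer transcripts had lower log2 fold changes over the 12473 genes with a length (Spearman's rho of -0.31 across genes, which are not independent replicates), and the longest transcripts of Ern1, Eif2ak3 and Atf6 were 6946, 4513 and 7246 bases.

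The 3 transcription factors of the response each had a log2 fold change above 0, under every rescaling tried as well, and none passed the threshold. Atf4 (ENSMUSG00000042406.8, chr15:80255184-80257541), which is controlled mainly at translation, was at 44.3, 60.8 and 55.6 CPM across control replicates 1 to 3, and 72.7, 79.8 and 53.1 CPM across MaeaCsf1r-Cre replicates 1 to 3. MaeaCsf1r-Cre replicates 1 and 2 were above every control library and replicate 3 was below control replicates 2 and 3. Its log2 fold change was 0.34 (SE 0.19, adjusted p = 0.967 from limma, or 0.368 when blocked). With the block and the correction for length together, the unadjusted p of Atf4 from limma was 0.0417 and its adjusted p 0.348. In that fit 5 of the 31 members and 13.5% of all genes had an unadjusted p under 0.05.

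Ddit3, which encodes CHOP, the factor tied to cell death in unresolved stress, was at 8.01, 9.74 and 9.78 CPM across control replicates 1 to 3, and 10.97, 10.1 and 10.5 CPM across MaeaCsf1r-Cre replicates 1 to 3. It was the only member whose groups did not overlap, all 3 MaeaCsf1r-Cre values lying above the 3 control values, that is 1 of 31 or 3.23% of the members tested against 8.55% of all genes (2.49% higher and 6.06% lower). The gap was small, with 9.78 CPM in the highest control and 10.1 CPM in the lowest MaeaCsf1r-Cre library, and the log2 fold change was 0.18 (interval -0.22 to 0.59, adjusted p = 0.967 from limma). Xbp1 (ENSMUSG00000020484.18) was at 129.7, 119 and 131 CPM in control and 113, 135 and 136 CPM in MaeaCsf1r-Cre libraries, with a log2 fold change of 0.018 (interval -0.26 to 0.30).

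Of the 3 targets of ATF4 and CHOP, 2 were tested and 0 passed the threshold. Asns, which makes asparagine (ENSMUSG00000029752.12, chr6:7675169-7693254), was at 247, 129 and 129 CPM across control replicates 1 to 3, and 332, 154 and 206 CPM across MaeaCsf1r-Cre replicates 1 to 3. Replicate 1 was the highest library of both groups, each MaeaCsf1r-Cre library was above its same-numbered control, and control replicate 1 was above MaeaCsf1r-Cre replicates 2 and 3. The log2 fold change was 0.45 with an SE of 0.33 without the block (adjusted p = 0.967 from limma) and 0.10 with it (unadjusted p = 0.00323, adjusted p = 0.218). It was 0.15 without MaeaCsf1r-Cre replicate 1, 0.29 without control replicate 2 or 3 and 0.76 without control replicate 1. The summed erythroid genes were also highest in replicate 1 of both groups, at 421, 151 and 175 CPM in control and 377, 176 and 301 CPM in MaeaCsf1r-Cre replicates 1, 2 and 3. Of these, Klf1, an erythroid transcription factor named after its values were seen, was at 319, 119 and 94.0 CPM and at 331, 122 and 202 CPM, above its same-numbered control in 3 of 3 pairs as Asns was, and the part of erythroid cells in the value of Asns was not tested.

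Trib3, a pseudokinase that dampens ATF4, was at 7.28, 12.7 and 6.28 CPM across control replicates 1 to 3, and 1.74, 8.04 and 6.25 CPM across MaeaCsf1r-Cre replicates 1 to 3. MaeaCsf1r-Cre replicate 1 was the lowest of all libraries and control replicate 2 the highest, and in pair 3 the values were nearly equal. Its log2 fold change was -0.73 (SE 0.46, adjusted p = 0.967 from limma, or 0.337 when blocked), and it was -0.21 without MaeaCsf1r-Cre replicate 1 and -0.46 without control replicate 2. Chac1, which breaks down glutathione, stood at an inferred 3, 30 and 3 reads in control and at 30, 18 and 17 reads in MaeaCsf1r-Cre replicates 1, 2 and 3, or 0.383 to 0.492 CPM in MaeaCsf1r-Cre libraries, and control replicate 2, at 0.757 CPM, was the highest of all 6.

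**Figure D4:**
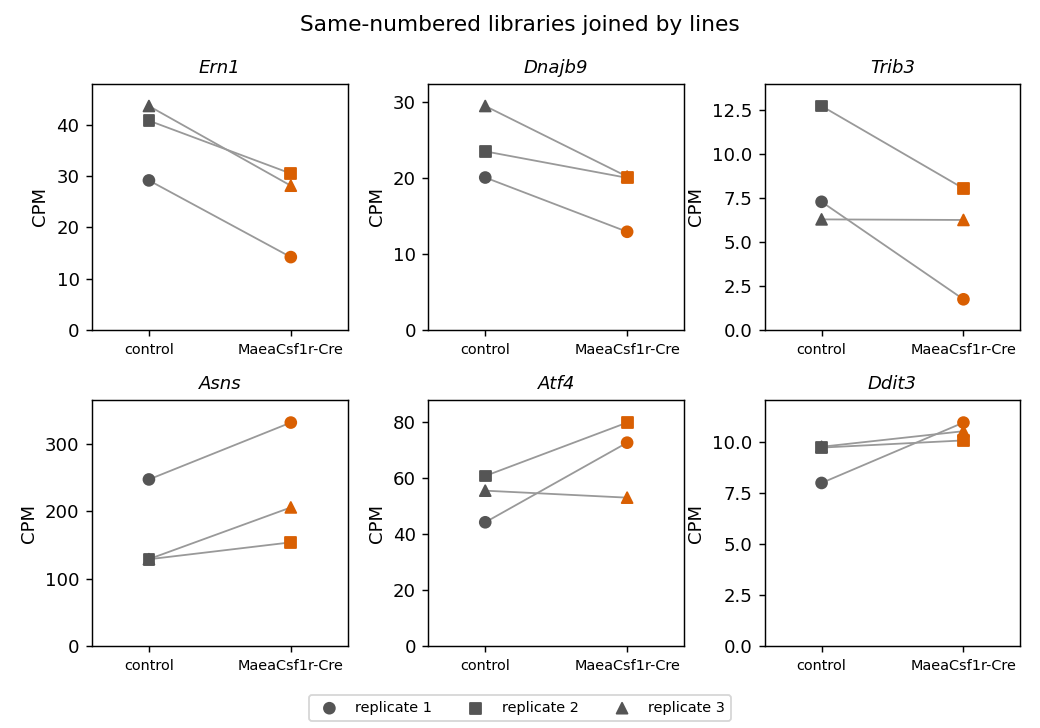
CPM of Ern1, Dnajb9, Trib3, Asns, Atf4 and Ddit3 in control and MaeaCsf1r-Cre HSCs, with same-numbered libraries joined (circle, square and triangle for replicates 1, 2 and 3) and axes from 0. All 3 lines go down for Ern1, Dnajb9 and Trib3 and up for Asns and Ddit3, and for Atf4 the line of replicate 3 goes down.

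Of the 31 members, 2 were higher in 3 of 3 pairs (Asns and Ddit3) and 5 were lower (Dnajb9, Herpud1, Sel1l, Ern1 and Trib3), 22.6% together against 36.7% of all genes tested (13.2% higher and 23.5% lower). The within-group SD on the log2(CPM + 1) scale had a median of 0.18 over the members and of 0.24 over all genes. It was lowest for Sec61a1 at 0.077 and highest for Trib3 at 0.73. The 8 tested members with ERSE in the promoter window had log2 fold changes from -0.17 to 0.14 with a median of -0.011, and the 18 with a promoter but no ERSE in it ranged from -0.73 to 0.45 with a median of -0.039, a description without a test.

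Levels between genes were compared per kb of the longest transcript, as a mean of the 6 libraries. Canx (154 CPM per kb), Hspa5 (153) and P4hb (152) were at the top and within their spread of each other, followed by Pdia3 (135), Sec61b (133) and Hsp90b1 (117). Xbp1 was at 59.8 and Atf4 at 35.4 CPM per kb. The sensors lay near the bottom, Ern1 at 4.48, Atf6 at 3.49 and Eif2ak3 at 3.04 CPM per kb, in the range of Trib3 at 3.48, with Derl3 and Chac1 under 1.

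The wider pathway was covered by 5 lists that share no gene with the members, 131 genes tested in all, of which 0 passed the threshold in either fit, while 6 had a blocked p under 0.05 before adjustment (4.58%, against 13.9% of all genes). Of 28 other ER folding genes, 10 had a log2 fold change above 0 and 18 below, with a median of -0.086, and with the correction for length 15 were above 0. Those with the smallest p were Cnpy3, a co-chaperone of GRP94 for Toll-like receptors (log2 fold change -0.28, unadjusted p = 0.103 from limma, or 0.018 when blocked), Cnpy4 (-0.25) and Fkbp14, an ER prolyl isomerase (-0.48). Cnpy3 was at 66.6, 85.4 and 69.5 CPM in control and 52.9, 69.2 and 59.3 CPM in MaeaCsf1r-Cre libraries, lower in 3 of 3 pairs.

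Of 26 other degradation genes tested, 9 were above 0 and 17 below, with a median of -0.055. Erlin2, a membrane scaffold for degradation of the inositol trisphosphate receptor, was at 60.97, 69.3 and 65.7 CPM in control and 56.7, 48.8 and 59.7 CPM in MaeaCsf1r-Cre libraries, with all 3 MaeaCsf1r-Cre libraries below the 3 controls and a log2 fold change of -0.24. Faf2 and Aup1, which tie the degradation machinery to lipid droplets, had log2 fold changes of -0.23 and 0.19. With the correction for length the median of the 23 genes with a length was 0.072.

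Of 30 genes for targeting, translocation and glycosylation, 21 were above 0 and 9 below, with a median of 0.044. Dad1, a subunit of the oligosaccharyltransferase, was at 111, 110.1 and 110.4 CPM in control and 137, 119 and 129.7 CPM in MaeaCsf1r-Cre libraries, the groups not overlapping and the log2 fold change 0.21 (SE 0.11, adjusted p = 0.967 from limma). Sec61a2, the second gene for the channel, had a log2 fold change of 0.44, and Tram1, which helps nascent chains into it, -0.19.

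Of 24 other ATF4 targets tested, 15 were above 0 and 9 below, with a median of 0.094. A blocked p from limma under 0.05 before adjustment was reached by 3 of the 24, 2 higher and 1 lower. That is 12.5%, near the 13.9% of all genes. The list was chosen with earlier results of these data known, and the part of ATF4 in the value of Vldlr was not tested. Vldlr, the very low density lipoprotein receptor, was at 18.02, 24.97 and 15.4 CPM across control replicates 1 to 3, and 50.6, 61.2 and 55.7 CPM across MaeaCsf1r-Cre replicates 1 to 3. All 3 MaeaCsf1r-Cre values were above every control value, the log2 fold change was 1.498 (SE 0.19), and the adjusted p from limma was 0.194 without and 0.0565 with the block. Gpt2, an alanine transaminase, had a log2 fold change of -0.72, and Slc7a5, the large neutral amino acid transporter, 0.22.

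Of 23 other regulators of the stress response and of eIF2, 14 were above 0 and 9 below, with a median of 0.046. Wfs1, an ER membrane protein, had a log2 fold change of -0.50, with 0.377 CPM in MaeaCsf1r-Cre replicate 1 and 1.92 to 2.63 CPM in the other 5 libraries. Eif2b3, a subunit of the exchange factor of eIF2, had a log2 fold change of 0.25, and Nck1, an adaptor that lowers eIF2 phosphorylation, -0.21.

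**Figure D5:**
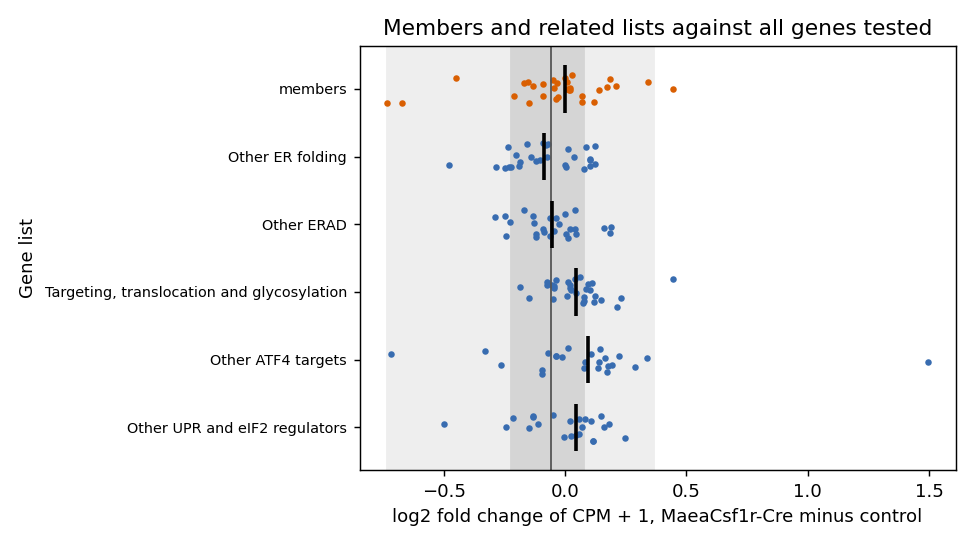
log2 fold change of CPM + 1, MaeaCsf1r-Cre minus control, for each gene of the members (orange) and of the 5 related lists (blue), with black bars at the list medians. The grey line is the median of all genes tested, the dark band holds the middle 50% of all genes and the light band the middle 95%, in which 29 of the 31 members lie; Vldlr is the point at 1.498.

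The plasma cell and B-cell genes, whose cells carry a large ER, were low. The 5 plasma cell genes in the table summed to 8.49 to 17.9 CPM in control and to 2.97 to 6.59 CPM in MaeaCsf1r-Cre libraries, and Mzb1 and Tnfrsf17 were under 1 CPM in every library. Most of these sums was Sdc1, at 8.16 to 10.1 CPM in control and 2.90 to 6.25 CPM in MaeaCsf1r-Cre libraries. The 6 B-cell genes summed to 33.2 to 55.0 and 13.2 to 26.3 CPM, nearly all of it from Cd79b and Ighm. The part of these lists in the values of the members was not tested.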

How the data were processed

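HSC libraries were made with SMART-Seq v4 and Nextera XT kits, which do not mark strand, and sequenced as single-end reads. The authors aligned reads to mm10 with STAR 2.5.3a, counted them against Ensembl transcripts and scaled the counts in Partek Flow. The values they deposited are CPM, 1 column per library, with 0.0001 added. Reads behind the scaling were computed from the steps between low CPM values, of which 76.0 to 77.3% lay within 0.05 of a whole read, so read counts were not recovered for the table as a whole. The reads given for Derl3 and Chac1 are inferred from that scaling, and all 12 values lay within 0.05 of a whole read. The limit of 3 reads covers counting error only.

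Genes that reached 1 CPM in 3 or more libraries entered the test, on log2(CPM + 1), which understates the differences of low genes, with limma 3.58.1 (R 4.3.3), a linear model with a mean-variance trend, two-sided, and p-values were adjusted by Benjamini-Hochberg over all 12955 (threshold 0.05). An exact permutation test of 3 against 3 cannot go below 0.1. The replicate numbers of the labels were checked for pairing: same-numbered libraries deviated from their groups together (Pearson's r across genes of 0.63, 0.52 and 0.40, against -0.46 to -0.054 for the others), so the fit was repeated with the number as a block. The labels do not say what a number shares, or that replicates were separate animals, so p-values measure the spread between these libraries. Alternatives were no trend, a filter at 10 CPM or none, a pseudocount of 0.1, quantile normalization, median ratios, a loess correction for transcript length (span 0.5) alone and with the block, and each library left out.

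On simulated data made from these libraries, 0 of 200 genes with a log2 change of 0.5, 101 of 200 with 1 and 184 of 200 with 2 were called among 12955. Lengths and positions came from GENCODE M21 (GRCm38) and promoters from RefSeq. The named genes were the 33 members, Maea and the 3 genes with the smallest p in each related list. The members and the lists were chosen with earlier results of these data known. Retention signals at the protein ends were not analysed here. Tables were made with Python 3.11.15, pandas 2.3.3, numpy 2.4.6 and matplotlib 3.10.9.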

Additional observations from a re-analysis of the deposited data

How the results depend on the processing

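0 members were past the threshold in limma under any of the 15 alternatives. Genes past it among all tested numbered 1, with 0 under the filter at 10 CPM (302 before adjustment), 16 under the length correction combined with the replicate block, and 0 to 3 with a library left out. It was 0 without control replicate 2 or 3 and 3 without MaeaCsf1r-Cre replicate 3. With the block and length correction Vldlr was among those past it, at 1.69. With the replicate block alone the count was 1, the gene also called without the block, which was not Vldlr. The members past the threshold stayed at 0. Members whose groups did not overlap numbered 1, and 2 to 8 with a library left out, where fewer samples make overlap rarer (8 without MaeaCsf1r-Cre replicate 3). The share over all genes was computed only with all 6 libraries, so the counts with a library left out have no background beside them. The length correction, with or without the block, moved the median log2 fold change of all genes from -0.058 to 0.032. It moved that of the ER-associated degradation members to 0.10, of the sensors to -0.025, of the other ER folding genes to 0.013, of the other degradation genes to 0.072 and of the other ATF4 targets to 0.20. Quantile normalization moved the transcription factors to 0.31 and the other ER folding genes to -0.016, and median ratios moved the latter to -0.027. The filter at 10 CPM left Asns alone, at 0.45, among the ATF4 and CHOP targets, since Trib3 was filtered out. With a library left out, the median ranged from -0.11 to -0.032 for the other ER folding genes and from -0.013 to 0.13 for the other ATF4 targets, from -0.043 to 0.11 for targeting, translocation and glycosylation and from -0.059 to 0.11 for the other regulators, these 3 lowest without MaeaCsf1r-Cre replicate 1, and from -0.084 to 0.011 for the other degradation genes, highest without MaeaCsf1r-Cre replicate 2. Over the members it ranged from -0.086 to 0.065, from -0.070 to 0.14 for the Hsp70 system and from -0.11 to 0.022 for degradation.

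Members near 0 changed sign with the scaling. These were Hsp90b1 0.027, Pdia6 0.034, P4hb 0.031, Edem1 0.011 and Derl2 0.015 under median ratios, Hspa5 -0.027 and Pdia3 -0.0016 under quantile normalization, and Hsp90b1 0.059, Canx 0.048, Pdia6 0.041, P4hb 0.066, Sec61b -0.069, Edem1 0.12, Sel1l 0.022 and Derl2 0.076 under the length correction, alone or with the block. With a library left out, members that changed sign ranged as follows: Hspa5 from -0.12 to 0.094, Hyou1 from -0.13 to 0.26, Sdf2l1 from -0.048 to 0.35, Hsp90b1 from -0.12 to 0.073, Calr from -0.069 to 0.13, Canx from -0.23 to 0.0029, Pdia3 from -0.067 to 0.16, Pdia6 from -0.10 to 0.080, P4hb from -0.088 to 0.029, Sec61a1 from -0.016 to 0.071, Sec61b from -0.17 to 0.11, Edem1 from -0.13 to 0.087, Derl1 from -0.14 to 0.15, Derl2 from -0.13 to 0.12 and Xbp1 from -0.029 to 0.11. The cause of these moves was not tested. Ern1, Dnajb9, Trib3, Asns, Atf4 and Ddit3 kept their sign under every alternative in which they were tested. With 3 libraries a group, 0 of 200 simulated log2 changes of 0.5 were called, and depth limits mainly Derl3 and Chac1, at an inferred 3 to 70 reads.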
